A study of Mus musculus with 4 samples.

Results

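Naive-type CD4 T cells of the mouse ovary were chosen by a gate on the raw transcript counts of sorted CD45+ leukocytes profiled by single-cell RNA sequencing, and 318 of 4918 kept cells met it. A member was a hashtag singlet with at least 500 detected genes, under 10% mitochondrial transcripts, at least 2 unique molecular identifiers (UMIs, each 1 captured transcript) of Cd3d, Cd3e and Cd3g together, and at most 1 UMI of the B cell genes Cd79a and Ms4a1. It held at least 1 UMI of Cd4, none of Cd8a, Cd8b1 or Foxp3, and more UMIs of Lef1, Tcf7, Igfbp4 and Dapl1 together (the naive sum) than of Rora, Itgb1, S100a4, S100a6, Cxcr3 and Cxcr6 together (the memory sum). Conventional CD4 T cells that failed only this last step are called effector-memory-type and numbered 109. Cells that passed the same CD3, B cell and naive-over-memory steps but carried CD8 in place of CD4 transcripts are called naive-type CD8 T cells and numbered 340.

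The gonadotropin group was 5 female C57BL/6J mice aged 10 to 12 weeks, whose ovaries were taken 48 h after gonadotropin treatment. The untreated group was 5 mice of the same strain, sex and age that had received saline. Each mouse carried its own hashtag, but the 5 mice of a group were pooled into 1 library, so treatment and library cannot be told apart. The p-values over mice set the difference between the pools against variation among animals within a pool. They hold no variation between libraries. The gonadotropin preparation and dose are not given in the sources used here, and neither is any removal of blood from the ovary before dissociation.

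A naive CD4 T cell is a mature helper T cell that has not yet met its antigen. It circulates between blood and lymph nodes in a quiescent state, guided by the chemokine receptor CCR7 and the lipid receptor S1PR1, and survives on interleukin-7 and weak self-recognition through its T cell receptor. The transcription factors TCF-1 (Tcf7), LEF1, KLF2, FOXO1 and BACH2 maintain this state. When the receptor is triggered, immediate early genes such as Fos and Junb are transcribed first, and the cell then grows, divides and takes on an effector or memory form.

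The gonadotropin pool gave 143 members, from 16 to 52 per mouse, and the untreated pool 175, from 19 to 58 per mouse. Summed over a mouse's members, the counts ran from 126823 to 444532 UMIs in gonadotropin mice and from 132628 to 458103 UMIs in untreated mice. The pools shared 4 barcode sequences, none of them among the members. A further 12 barcodes of the gonadotropin pool and 15 of the untreated pool met the gate but were called hashtag doublets and left out.

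Most members stood far from the edge of the naive-over-memory step of the gate. Lef1 and Tcf7, transcription factors of the naive state, were found in 99.4% and 94.7% of members, and Igfbp4 and Dapl1, which mark naive T cells in mice, in 49.4% and 49.7%. Their naive sum had a median of 19 UMIs and a range of 2 to 78, and 205 of the 318 (64.5%) had a memory sum of 0. Of the naive genes, 87 members held all 4, 131 held 3, 91 held 2 and 9 held 1. Cd4 itself was counted once, the least the gate allows, in 144 members, and at most 8 times in a cell. Many members thus stood at the edge of the Cd4 step, and cells without a captured Cd4 transcript were missed. Just inside the threshold, 8 members had a naive sum 1 to 3 UMIs above the memory sum, and just outside it 1 cell was level and 9 were 1 to 3 UMIs below. The effector-memory-type cells had a median naive sum of 4 and a median memory sum of 22 UMIs.

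**Figure D1:**
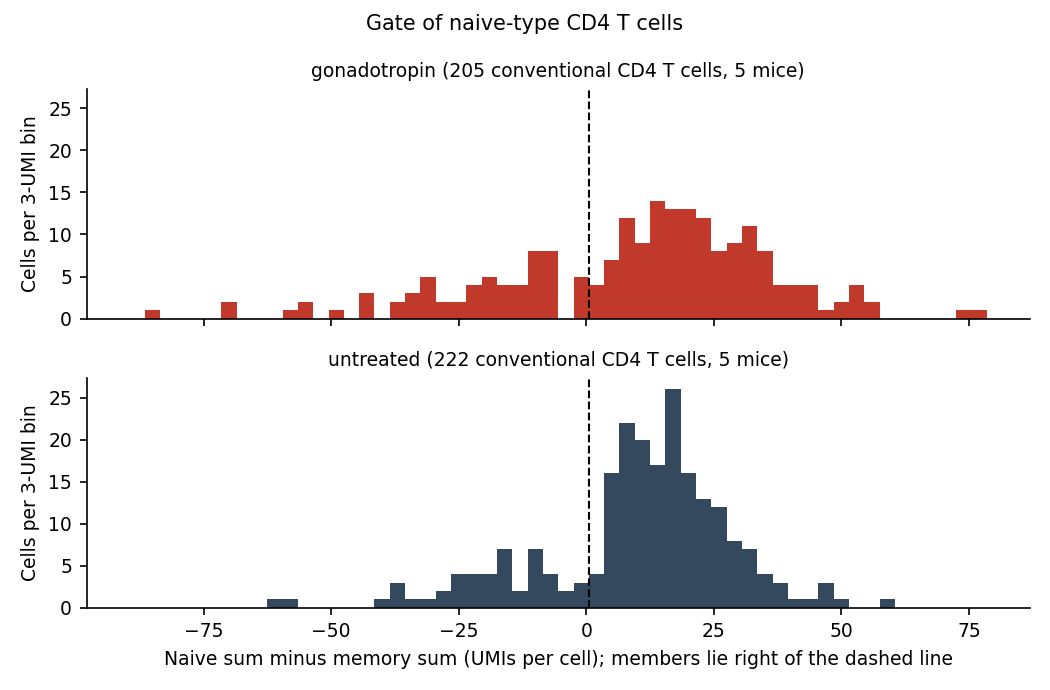
Naive sum minus memory sum (x axis, UMIs per cell) in the 205 conventional CD4 T cells of gonadotropin mice (upper panel) and the 222 of untreated mice (lower panel), in bins of 3 UMIs (y axis, cells). Members lie right of the dashed line, and few cells of either group lie beside it.

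The first question was whether the label fits the cells, using genes that took no part in the gate. Because the gate itself separated these populations, the following levels are a description with no test. Levels are in CPM, a gene's UMIs scaled to all UMIs of those cells, as the mean ± SD over mice with at least 10 cells. Shares of cells with a UMI were also taken after thinning every cell to 2000 UMIs, since the median cell held 7873 UMIs among members, 7373 among effector-memory-type CD4, 9502.5 among naive-type CD8 and 6835.5 among cells outside the T cell criteria.

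The homing genes of naive T cells were present as the label implies. Ccr7, which guides cells into lymph nodes, had 272 ± 39.5 CPM in naive-type CD4 T cells (n = 10 mice) and 71.7 ± 43.0 CPM in effector-memory-type CD4 T cells (n = 7). It was found in 81.8% of members and 25.7% of effector-memory-type cells, or 41.0% and 10.1% after thinning. S1pr1 was less separated, with 285 ± 59.9 and 173 ± 87.9 CPM in the same order of types. The interleukin-7 receptor gene Il7r was at similar levels in both, with 1050 ± 187 CPM in naive-type and 989 ± 158 CPM in effector-memory-type cells, against 25.7 ± 9.31 CPM in cells outside the T cell criteria (n = 10).

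The transcription factors of quiescence outside the gate followed the same order. Satb1, a chromatin organiser, had 1148 ± 312 CPM in naive-type and 353 ± 273 CPM in effector-memory-type cells. Bach2, a repressor of effector genes, had 1212 ± 219 and 358 ± 105 CPM, and Foxp1, which keeps naive cells quiescent, 1790 ± 329 and 592 ± 159 CPM. The adhesion receptor Cd44, which rises on activated and memory cells, ran the other way, with 33.9 ± 21.8 CPM in naive-type and 303 ± 54.9 CPM in effector-memory-type cells. Its share of cells with a UMI was 17.3% of members and 82.6% of effector-memory-type cells, or 4.42% and 41.3% after thinning.

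Over the lists of genes outside the gate, 22 of 26 naive and quiescence genes had a higher mean in naive-type than in effector-memory-type cells, 16 of them in each of the 7 mice with at least 10 cells of both types. All 20 memory and effector genes had a lower mean, 16 of them in each of the 7 mice. The naive-list genes with the opposite order were the gut-homing receptor Ccr9, Tob1, Vsir and Arhgap18, and Arhgap18 was lower in naive-type cells in each of the 7 mice, with 26.3 CPM against 186 CPM in effector-memory-type cells.

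Ranked by ratio among genes in the same direction in every one of those mice, the genes highest in naive-type over effector-memory-type cells included 3 that had at most 3 UMIs in the effector-memory-type cells. These were Auts2 (81.8 against 1.77 CPM), Ifngr2, a subunit of the interferon-gamma receptor (70.4 against 2.48 CPM), and Bcl9 (62.3 against 4.92 CPM). The sialyltransferase St8sia6 was 10.7-fold higher. Atp1b1, Slc49a4, Maml3, Mtss1 and Cers6 followed at 9.38-fold to 6.88-fold. Among the 10 genes lowest in naive-type relative to effector-memory-type cells, the chemokine Ccl5 stood at 3.15 CPM in naive-type and 1188 CPM in effector-memory-type cells, the T helper 1 factor Tbx21 at 1.73 and 132 CPM, the interleukin-18 receptor subunit Il18rap at 1.23 and 126 CPM, and the chemokine receptor Ccr2 at 0.92 and 134 CPM. Itga1, Myo1f, Ly6c2, Ttc39c, Il12rb2 and Cobll1 completed the 10, and each had at most 8 UMIs in the naive-type cells of those mice.

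Against naive-type CD8 T cells few genes of the naive list differed in the same direction in every mouse. Of 26 naive-list genes outside the gate, 17 had a higher and 9 a lower mean in naive-type CD4 T cells, and 2 and 1 of these did so in each of the 10 mice. Of 20 memory and effector genes outside the gate, 7 had a higher and 13 a lower mean in naive-type CD4 T cells. In each of the 10 mice, 0 of these were higher and 5 lower. Ccr7 had 272 ± 39.5 CPM in naive-type CD4 and 264 ± 61.0 CPM in naive-type CD8 T cells, and Klf2 had 777 ± 146 and 779 ± 138 CPM (SD, n = 10 each). Cd40lg, the ligand by which helper T cells license B cells, had 142 ± 31.1 CPM in naive-type CD4 and 4.46 ± 5.89 CPM in naive-type CD8 T cells. Ly6c1, a surface protein of the Ly6 family, had 91.5 ± 17.1 and 2.78 ± 3.77 CPM. In the other direction the granule gene Nkg7 had 10.2 ± 29.7 CPM in naive-type CD4 and 338 ± 46.7 CPM in naive-type CD8 T cells, and 42 of its 43 UMIs among the members lay in 1 gonadotropin cell. The effector chemokine Ccl5 had 2.96 ± 3.19 CPM in naive-type CD4 and 399 ± 243 CPM in naive-type CD8 T cells. Ccr9 had 4.11 ± 6.20 and 83.7 ± 27.6 CPM, and the killer-cell lectin receptor gene Klrd1 20.7 ± 10.4 and 212 ± 23.6 CPM.

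**Figure D2:**
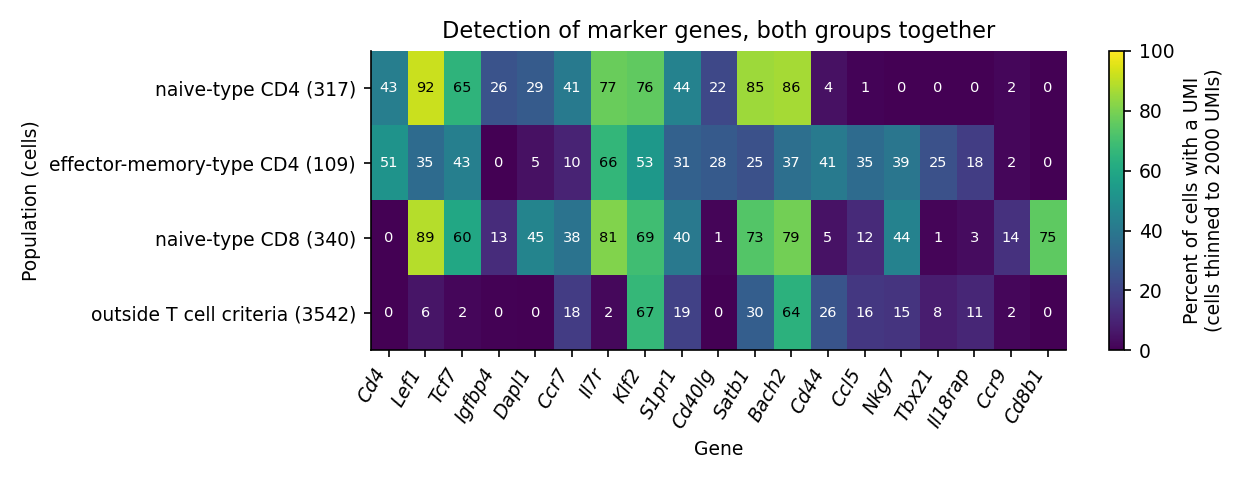
Percent of cells with at least 1 UMI of each gene (columns) in 4 populations (rows, with the number of cells), after thinning each cell to 2000 UMIs and leaving out shallower cells. Cd4, Lef1, Tcf7, Igfbp4, Dapl1 and Cd8b1 took part in the gates; among the others Ccr7, Satb1 and Bach2 are more frequent in naive-type than in effector-memory-type CD4 T cells, and Cd44, Ccl5, Nkg7, Tbx21 and Il18rap less frequent.

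Effector cytokines were close to undetected. Il2, Il5, Il10, Il13, Il17a and Il21 had no UMI in the 318 members, which allows up to 0.943% of cells with a UMI. Ifng was counted 8 times and Il4 20 times, each in 1 cell. The lineage factor Tbx21 was found in 0.629% of members, below its 13.0% outside the T cell criteria, while Gata3, which naive CD4 cells need for survival as well as for T helper 2 differentiation, was found in 34.6%, against 6.29% outside the T cell criteria. The membrane cytokine lymphotoxin beta (Ltb) was found in 95.6% of members and 70.5% of the cells outside the T cell criteria.

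Of the receptors through which hormones of the ovulatory cycle might be read, those for luteinising hormone (Lhcgr), follicle-stimulating hormone (Fshr) and progesterone (Pgr), the second estrogen receptor (Esr2) and Gper1 had no UMI among the members. The estrogen receptor Esr1 was found in 10.1% of members, against 10.3% of the cells outside the T cell criteria, or 3.15% and 3.53% after thinning. The glucocorticoid receptor Nr3c1 was found in 65.4% of members and 71.7% of those other cells. Membrane progesterone receptor genes Paqr7 and Paqr8 were found in 12.9% and 8.18% of members, and in 3.43% and 1.84% of the cells outside the T cell criteria.

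The members used many T cell receptor genes. A UMI of a beta-chain variable segment was captured in 80 members, 6 of which held 2 or more segments. Across these 80 cells, 18 of the 35 beta segments in the data were seen. Trbv2 was the most frequent, in 13 of these cells (16.2%), and Trbv3, Trbv16, Trbv20 and Trbv31 were each in 7. An alpha-chain variable segment was captured in 88 members, 10 of which held 2 or more segments. Of 128 alpha segments, 42 were seen, with Trav14d-3-dv8 in 10 cells, although near-identical copies of the alpha segments make their assignment uncertain. The share of Trbc1 among UMIs of the 2 beta constant genes was 37.1%, 50.5%, 43.4%, 37.9% and 64.3% in the gonadotropin mice and 36.2%, 32.5%, 40.3%, 36.0% and 35.4% in the untreated mice. The groups overlapped, and gonadotropin mouse 5, with 16 members, stood highest.

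Transcripts of other cells were few and uneven. CD8 genes were at 0 by the gate. The summed B cell markers, all 12 with a UMI, ranged from 168 to 260 CPM in gonadotropin and from 151 to 236 CPM in untreated mice. The summed myeloid markers, 10 of 12 with a UMI, ranged from 84.1 to 149 and from 63.3 to 103 CPM. Erythrocyte markers, 5 of 7 with a UMI and Slc4a1 among those at 0, ranged from 25.2 to 63.1 CPM in gonadotropin and from 0 to 12.5 CPM in untreated mice, without overlap. Natural killer and cytotoxic markers, 8 of 12 with a UMI, ranged from 31.5 to 139 CPM in gonadotropin and from 28.4 to 71.3 CPM in untreated mice. Ovarian granulosa, luteal and stromal markers, 3 of 12 with a UMI, ranged from 238 to 373 and from 260 to 400 CPM. This sum rests on Star, Cyp11a1 and Pecam1 alone and is not split by gene here, so it cannot be read as an amount of ovarian RNA. Only 1 gene of this list was measured well enough for the test of changed genes below. Amh, Fst, Inha, Inhba, Cyp19a1, Hsd3b1, Col1a1, Col1a2 and Dcn had no UMI.

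A few members carried strong marks of other T cell types. In 8 gonadotropin and 3 untreated members, markers of natural killer, innate-like or regulatory T cells summed to 10 or more UMIs. Ikzf2, which encodes Helios and is known from regulatory T cells, had 133 UMIs in gonadotropin and 29 in untreated members, 130 of the 162 in those 11 cells. The summed regulatory markers, with Foxp3 at 0 by the gate, ranged from 86.7 to 382 CPM in gonadotropin and from 142 to 193 CPM in untreated mice. Zbtb16, the factor of innate-like T cells, had 18 UMIs, 17 of them in 1 gonadotropin cell. Results below that rest on these cells are given with and without them.

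The next question was whether the abundance of naive-type CD4 T cells differed after gonadotropin. They made up 5.33%, 7.41%, 5.86%, 6.28% and 4.40% of the kept cells of gonadotropin mice and 11.5%, 4.31%, 8.49%, 6.42% and 5.92% of those of untreated mice. The groups overlapped widely, at 5.85% ± 1.12 and 7.33% ± 2.76 (SD, n = 5 each; exact two-sided permutation test, p = 0.317). The difference of -1.47 percentage points was -0.43 without untreated mouse 1, -2.22 without untreated mouse 2 and -0.54 with the gate applied after thinning. Of conventional CD4 T cells they made up 75.0%, 71.8%, 56.7%, 71.2% and 69.6% in gonadotropin mice and 84.1%, 70.0%, 87.1%, 73.1% and 76.8% in untreated mice. The means were 68.9% ± 7.09 and 78.2% ± 7.23 (SD, n = 5 each), a difference of -9.35 percentage points that did not pass the test (exact two-sided permutation test over all 252 assignments, p = 0.0714, adjusted over both shares p = 0.143). With the gate applied after thinning, this difference was -9.39 (exact two-sided permutation test, p = 0.246, adjusted over both shares p = 0.349). The smallest p this design allows is 0.0079. Fewer cells and less captured RNA per cell cannot be told apart in a share set by a count gate.

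The depth of the members was similar in both groups, and their mitochondrial share was not. The median member of a mouse held 7702 ± 463 UMIs in gonadotropin and 7588 ± 776 UMIs in untreated mice, and 2576 ± 61.3 and 2495 ± 120 genes (SD, n = 5 each; exact permutation tests, adjusted p = 0.794 and 0.321). The median mitochondrial percent was 1.95, 1.96, 2.04, 2.09 and 1.78 in gonadotropin mice and 2.25, 2.18, 2.47, 2.18 and 2.11 in untreated mice. Each gonadotropin mouse was lower than each untreated mouse, at 1.96% ± 0.12 and 2.24% ± 0.14 (SD, n = 5 each; exact two-sided permutation test, p = 0.0079, the smallest possible, adjusted over 3 measures p = 0.0238).

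**Figure D3:**
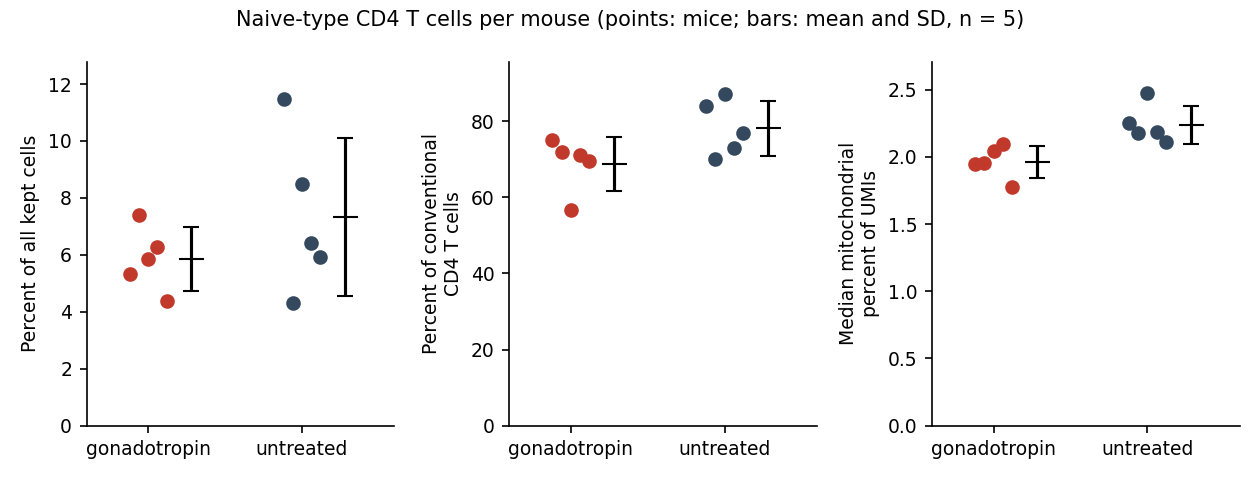
Naive-type CD4 T cells per mouse as a percent of all kept cells (left panel), as a percent of conventional CD4 T cells (middle) and their median mitochondrial percent of UMIs (right), gonadotropin mice left and untreated mice right in each panel. Points are mice and bars the mean and SD (n = 5); the groups overlap for both shares and do not overlap for the mitochondrial percent.

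The main comparison asked which genes differed within naive-type CD4 T cells after gonadotropin. Counts were summed per mouse over its members and tested over 3528 genes with edgeR's quasi-likelihood test, and CPM from here on are relative to the UMIs of the tested genes after TMM scaling. Of the tested genes, 3 (0.085%) passed an adjusted p of 0.05, 1 lower (0.0283%) and 2 higher (0.0567%). At an unadjusted p of 0.05, 402 genes (11.4%) passed, 203 lower (5.75%) and 199 higher (5.64%), and for 75 (2.13%) the gonadotropin and untreated mice did not overlap.

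The gene that fell was Junb, which encodes a Jun-family component of AP-1 and lies on chromosome 8 from 84976909 to 84978748 on the minus strand (GRCm38.p6). Junb had 354, 348, 186, 355 and 205 CPM in gonadotropin mice and 832, 459, 685, 487 and 565 CPM in untreated mice. Every gonadotropin mouse was below every untreated mouse. The means were 290 ± 86.3 and 606 ± 154 CPM (SD, n = 5 each), from 337 and 781 UMIs, with a log2 fold change of -1.01 ± 0.17 (SE; edgeR adjusted p = 0.00498). Without untreated mouse 1, which had the highest level, it was -0.85 and did not pass (edgeR adjusted p = 0.0709). Over 18 alternatives its log2 fold change ran from -1.11 to -0.85 and its adjusted p from 6.66e-10 to 0.0945. DESeq2 gave Junb no adjusted p, since its automatic filter assigned one to 245 of the 3528 genes only.

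Fos, which encodes the partner of Jun proteins in AP-1, narrowly missed the threshold with the same separation of the mice. Fos had 83.8, 130, 145, 174 and 125 CPM in gonadotropin mice and 320, 220, 282, 210 and 185 CPM in untreated mice. The groups did not overlap, with a log2 fold change of -0.86 ± 0.19 (SE; edgeR adjusted p = 0.053).

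Because Junb and Fos are the genes of the AP-1 and early response list whose mice did not overlap, their promoters are shown, from 250 bases before to 50 after the annotated start (RefSeq, GRCm38.p6). Capitals mark TGACG, the core of the cAMP response element, read on both strands. The Junb window is chr8:84978699-84978998 on the minus strand and holds 1 match, and the Fos window is chr12:85473640-85473939 on the plus strand and holds 2.
Junb: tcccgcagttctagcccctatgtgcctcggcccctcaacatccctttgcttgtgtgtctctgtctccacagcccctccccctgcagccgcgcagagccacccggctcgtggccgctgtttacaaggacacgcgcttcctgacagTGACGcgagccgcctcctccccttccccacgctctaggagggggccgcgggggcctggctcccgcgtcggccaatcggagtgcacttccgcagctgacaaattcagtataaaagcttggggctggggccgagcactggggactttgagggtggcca
Fos: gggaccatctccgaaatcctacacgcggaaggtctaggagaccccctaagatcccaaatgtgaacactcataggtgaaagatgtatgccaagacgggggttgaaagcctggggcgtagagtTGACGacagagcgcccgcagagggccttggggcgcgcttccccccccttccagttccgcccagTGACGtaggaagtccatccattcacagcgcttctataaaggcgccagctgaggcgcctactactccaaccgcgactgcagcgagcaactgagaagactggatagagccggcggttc
TGACG was found in 21% of 27025 mouse promoter windows of the same length. The AP-1 site TGANTCA and the serum response element, found in 7.93% and 1.57% of all windows, were in neither sequence. Bases further than 250 before the start were not searched, so sites of either kind may lie there. A match describes the letters of the window and not a bound site.

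Both genes that passed in the other direction are gene models known only by number, which stand outside the rule for named genes. Gm42418 is known to overlap ribosomal RNA sequence, so the source of its counts is uncertain. Gm42418 had 6753, 7833, 7183, 7460 and 8236 CPM in gonadotropin mice and 5959, 5484, 5086, 6565 and 5754 CPM in untreated mice. The groups did not overlap, with a log2 fold change of 0.38 ± 0.08 (SE; edgeR adjusted p = 0.0392). Gm20275 averaged 228 ± 70.5 and 118 ± 38.6 CPM (SD, n = 5 each), with a log2 fold change of 1.07 ± 0.21 (SE; edgeR adjusted p = 0.0372) and overlapping mice. Leaving out any one of gonadotropin mice 1 and 4 and untreated mice 1, 2 and 3 ended the call of Gm20275 (lowest log2 fold change 0.90, highest edgeR adjusted p = 0.154), and so did leaving out the 11 members with marks of other T cells (0.83, edgeR adjusted p = 0.111). Leaving out any one of gonadotropin mice 4 and 5 and untreated mice 1, 2, 3 and 5 ended that of Gm42418 (lowest log2 fold change 0.33, highest edgeR adjusted p = 0.125).

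**Figure D4:**
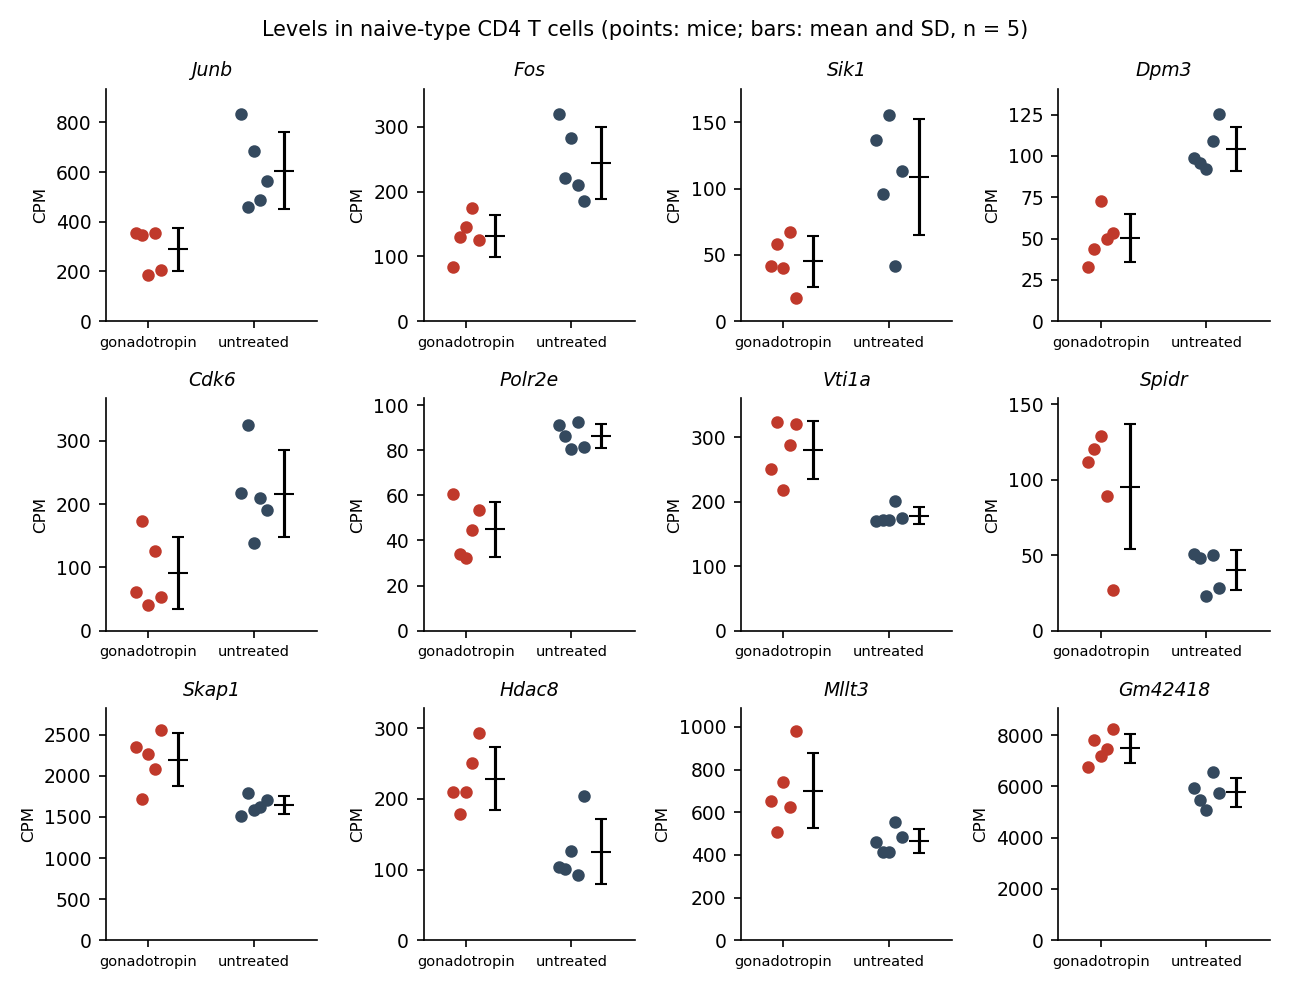
CPM of 12 genes in naive-type CD4 T cells of each gonadotropin mouse (left in each panel) and untreated mouse (right), with the mean and SD (n = 5). Junb and Gm42418 passed the test; the other 10 did not, and among those Fos, Dpm3, Polr2e and Vti1a show no overlap between the groups.

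The remaining genes with the smallest p are given although none passed the threshold. Among those with lower means, Sik1, a salt-inducible kinase, had 41.9, 57.9, 40.4, 67.1 and 17.8 CPM in gonadotropin mice and 137, 95.7, 155, 42.0 and 113 CPM in untreated mice (log2 fold change -1.17 ± 0.28, SE; edgeR adjusted p = 0.0594). Untreated mouse 4 lay among the gonadotropin mice. Dpm3, a subunit of the dolichol-phosphate mannose synthase, had 50.4 ± 14.8 CPM in gonadotropin and 104 ± 13.5 CPM in untreated mice (SD, n = 5 each), without overlap (-1.11 ± 0.24, SE; edgeR adjusted p = 0.053). Polr2e, a subunit shared by the RNA polymerases, had 45.0 ± 12.2 and 86.4 ± 5.43 CPM, also without overlap (edgeR adjusted p = 0.113). Cdk6, a kinase of the G1 phase, had 91.0 ± 57.1 and 217 ± 68.4 CPM (edgeR adjusted p = 0.053).

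Among those with higher means, Vti1a, a membrane fusion protein of the Golgi and endosomes, had 251, 323, 218, 288 and 321 CPM in gonadotropin mice and 170, 172, 173, 201 and 176 CPM in untreated mice. The groups did not overlap (log2 fold change 0.67 ± 0.15, SE; edgeR adjusted p = 0.053). Skap1, an adaptor between the T cell receptor and integrins, had 2198 ± 320 and 1643 ± 108 CPM (SD, n = 5 each; edgeR adjusted p = 0.064). Mllt3, a chromatin reader of the transcription elongation machinery, had 702 ± 177 and 465 ± 58.5 CPM (edgeR adjusted p = 0.0881). The histone deacetylase Hdac8 had 229 ± 44.6 and 125 ± 45.7 CPM (edgeR adjusted p = 0.0867), and Spidr, a scaffold of DNA repair, 95.6 ± 41.3 and 40.0 ± 13.3 CPM (edgeR adjusted p = 0.053).

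Of the 28 AP-1 and early response genes, 15 were measured well enough to be tested. Of these, 12 had a negative log2 fold change, 11 without TMM scaling, and 1, Junb, passed. The median was -0.45, against -0.01 over all genes tested, of which 50.7% were negative. At an unadjusted p of 0.05, 7 of the 15 were lower, against 5.75% of all genes tested. Besides Junb, Fos and Sik1, these were the phosphatase Dusp2 (-0.82 ± 0.35), the mRNA decay factor Zfp36 (-0.76 ± 0.23), the immediate early gene Ier2 (-0.56 ± 0.21) and the AP-1 subunit Jund (-0.29 ± 0.12). Jun itself averaged 318 ± 75.4 CPM in gonadotropin mice and 278 ± 73.5 CPM in untreated mice (0.21 ± 0.17), and Cd69, an early activation marker that holds T cells in tissue, had 181 ± 36.9 and 194 ± 28.9 CPM (-0.08 ± 0.17).

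Of the NF-kB list, 6 of 9 tested genes were negative, 5 without TMM scaling, with a median of -0.14 and none past the threshold. Nfkbia, an inhibitor of NF-kB, had 154, 280, 129, 191 and 151 CPM in gonadotropin mice and 353, 340, 276, 369 and 195 CPM in untreated mice. Gonadotropin mouse 2 was above untreated mice 3 and 5, so the groups overlapped, and the difference did not pass (log2 fold change -0.69 ± 0.19, SE; edgeR adjusted p = 0.139). Nfkbiz had -0.63 ± 0.22 (edgeR adjusted p = 0.245). The subunits Nfkb1 (0.18 ± 0.18) and Rel (0.04 ± 0.24) had values close to 0. The survival kinase Pim1 had 342 ± 155 CPM in gonadotropin and 551 ± 156 CPM in untreated mice (-0.70 ± 0.20, SE; edgeR adjusted p = 0.147).

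Genes of the type I interferon response had positive values throughout, and none passed the test. Of 28 listed, 13 were tested and all 13 were positive, against 49.3% of all genes tested, also without TMM scaling and with DESeq2's size factors, with a median log2 fold change of 0.30. Trim30a, an interferon-induced gene, had 163, 111, 129, 157 and 214 CPM in gonadotropin mice and 83.8, 110, 74.8, 118 and 122 CPM in untreated mice. Gonadotropin mouse 2 lay among the untreated mice, and the difference did not pass (log2 fold change 0.59 ± 0.20, SE; edgeR adjusted p = 0.232). Irf9, a transcription factor of the response (0.70 ± 0.27), and the antiviral gene Samhd1 (0.36 ± 0.14) were also among the 4 genes of the list at an unadjusted p of 0.05. Of all genes tested, 5.64% were higher at that p. The 9 listed genes that missed it ran from 0.10 to 0.50.

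For the genes that define the naive state no difference passed the test. Of 30 listed, 20 outside the gate were tested, 12 positive and 8 negative, with a median log2 fold change of 0.12 and none past the threshold. Bach2 had 0.35 ± 0.11 (1519 CPM in gonadotropin and 1204 CPM in untreated mice), and Foxp1 0.33 ± 0.10 (2239 and 1779 CPM). Klf2, which drives transcription of S1pr1, had 778 ± 49.7 and 971 ± 198 CPM (-0.33 ± 0.12). Ccr7 (-0.13 ± 0.15), S1pr1 (0.04 ± 0.16) and Il7r (-0.06 ± 0.13) were within 0.2 of 0. The genes of the naive sum chose the members, so their values are a description and are not counted as results. Lef1 had 2343, 1824, 1907, 2178 and 2128 CPM in gonadotropin mice and 1561, 1278, 1991, 1612 and 1653 CPM in untreated mice (0.36 ± 0.10, SE). Tcf7 had 0.31 ± 0.13, Igfbp4 0.46 ± 0.28 and Dapl1 -0.24 ± 0.22 (log2 fold change ± SE).

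Of the memory and effector list, 10 genes outside the gate were tested, 7 of them negative, with a median of -0.18 and none past the threshold. Along the T cell receptor pathway 17 of 25 tested genes were positive, with a median of 0.14 and none past the threshold. The zeta chain Cd247 had 715 ± 93.9 CPM in gonadotropin and 543 ± 71.0 CPM in untreated mice (0.41 ± 0.12), the transcription factor Nfatc3 380 ± 10.9 and 276 ± 59.0 CPM (0.42 ± 0.14), and the Ras activator Rasgrp1 354 ± 49.6 and 278 ± 29.6 CPM (0.31 ± 0.14; SD, n = 5 each). The kinases Lck (0.18 ± 0.14) and Zap70 (-0.11 ± 0.27) did not stand apart from 0.

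Several lists, housekeeping groups among them, had mostly negative values, again without a gene past the threshold. Over all genes tested, 50.7% were negative. Of the mitochondrially encoded genes, 11 of 12 tested were negative, with a median of -0.23, and in 6 the groups did not overlap, against 2.13% of all genes tested, such as mt-Cytb, which averaged 2239 ± 191 CPM in the gonadotropin group and 2750 ± 152 CPM in the untreated group (SD, n = 5 each; -0.29 ± 0.08). These genes make up the mitochondrial share reported above, which the gate limited to under 10% in each member. Nuclear genes of the respiratory chain were negative in 23 of 25 (22 without TMM scaling), with a median of -0.17. Myc and growth genes were negative in 11 of 12 (10 without TMM scaling), with a median of -0.23, among them the translation factors Eif4a1 (-0.39 ± 0.15) and Eif5a (-0.35 ± 0.15) and the nucleolar protein Npm1 (-0.30 ± 0.13). Of all 86 ribosomal protein genes tested, 74 were negative, with a median of -0.18 and none past the threshold. Of the apoptosis and survival genes, 9 of 11 were negative, with a median of -0.14. The cytokine receptor and JAK-STAT genes lay near the share of all genes, with 11 of 21 negative and a median of -0.06. The heat shock chaperones were mixed, with 9 of 15 positive and a median of 0.10.

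The mitochondrial percent and the erythrocyte transcripts moved with the groups as given above, and their part in these values was not tested. Without the 11 members with marks of other T cells, the log2 fold change of Junb was -0.98 (edgeR adjusted p = 0.0108) and that of Fos -0.79 (edgeR adjusted p = 0.111).

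**Figure D5:**
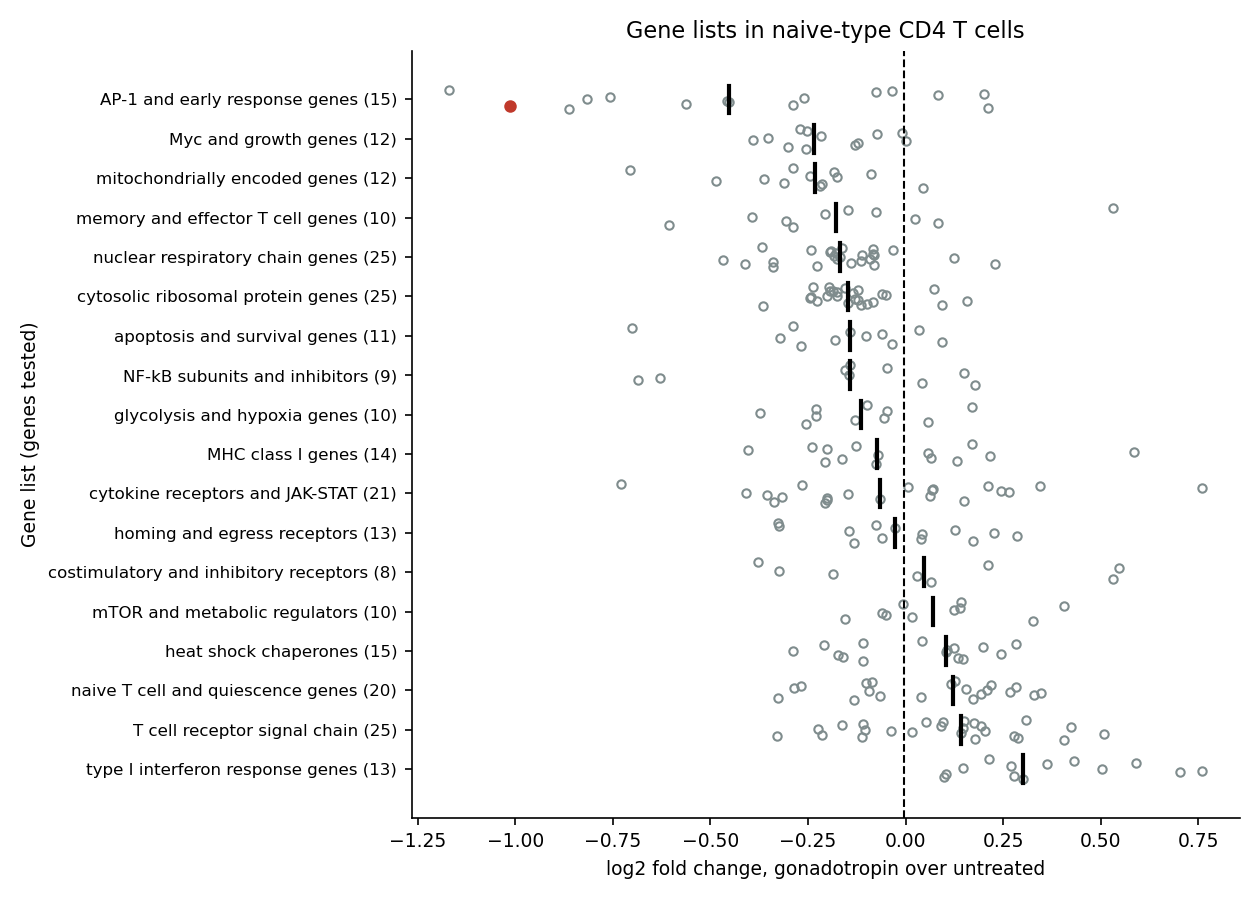
Log2 fold change, gonadotropin over untreated (x axis), of each tested gene outside the gate in the lists with at least 8 such genes (rows, number tested in brackets). The filled point is Junb, which passed the test; bars are list medians and the dashed line the median of all genes. The AP-1 and early response list has the lowest median, -0.45, and the type I interferon list the highest, 0.30.

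The last question was whether these changes differed from those of the nearest cell types. The comparisons below share mice and library with the naive-type CD4 T cells, so values are given side by side, and each difference between types was tested in 1 fit with a type-by-treatment term and a term for the mouse. In naive-type CD8 T cells, 29 of 4140 genes (0.7%) passed. Junb had 238, 250, 266, 286 and 273 CPM there in gonadotropin mice and 535, 413, 440, 566 and 509 CPM in untreated mice, without overlap (log2 fold change -0.89 ± 0.12, SE; edgeR adjusted p = 2.76e-05). Fos (-1.18 ± 0.22), Zfp36 (-1.10 ± 0.22), Nfkbia (-0.82 ± 0.18) and Pim1 (-0.73 ± 0.16) fell in naive-type CD8 T cells (edgeR adjusted p at most 0.0175). The change of Junb in naive-type CD4 minus that in naive-type CD8 T cells was -0.10 ± 0.19 and of Fos 0.33 ± 0.25 (log2 ± SE; edgeR adjusted p = 0.998 and 0.997), which does not show that they respond alike.

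Between naive-type CD4 and naive-type CD8 T cells, 1 of 4360 genes (0.0229%) differed in its change. This was Maml3, a coactivator of Notch signalling. In naive-type CD4 T cells Maml3 had 83.8, 130, 24.2, 42.3 and 44.5 CPM in gonadotropin mice and 140, 124, 219, 84.0 and 104 CPM in untreated mice. In naive-type CD8 T cells it had 86.0, 188, 168, 95.2 and 99.9 CPM in gonadotropin mice and 70.8, 65.7, 158, 73.3 and 53.9 CPM in untreated mice. The means lay lower after gonadotropin in the CD4 and higher in the CD8 cells, neither past the threshold alone, and the difference was -1.65 ± 0.31 (log2 ± SE; edgeR adjusted p = 0.0133). The call ended without gonadotropin mouse 4 (-1.54, edgeR adjusted p = 0.0725), untreated mouse 1 (-1.57, 0.129), untreated mouse 2 (-1.60, 0.0757) or untreated mouse 5 (-1.60, 0.0921), in the mice with at least 20 cells of both types (edgeR adjusted p = 0.0699), and under limma voom (limma adjusted p = 0.161).

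In effector-memory-type CD4 T cells, 3 of 2005 genes (0.15%) passed, from 4 gonadotropin and 3 untreated mice with at least 10 cells. Junb there had 536 and 689 CPM, with a log2 fold change of -0.40 ± 0.25, and the change in naive-type minus that in effector-memory-type cells was -0.61 ± 0.31 (SE; edgeR adjusted p = 0.516). Between these types, 43 of 3465 genes (1.24%) differed in their change in the same 7 mice, 37 of them with the lower value in naive-type cells. Of the 43, 34 encode ribosomal proteins, all with the lower value in naive-type cells, from -0.92 to -0.47 (median -0.57). Ribosomal protein genes were 86 of the 3528 genes tested in naive-type cells alone, and their number in the joint fit is not given here. Eef1a1, the elongation factor of translation, had a log2 fold change of -0.23 ± 0.08 in naive-type cells fitted alone over 10 mice and of 0.36 ± 0.10 in effector-memory-type cells fitted alone over 7 mice. In the joint fit of both types over those 7 mice, its difference was -0.70 ± 0.12 (edgeR adjusted p = 0.00298). Ribosomal protein genes took 30.7% ± 2.02 of the UMIs of naive-type cells in gonadotropin and 33.3% ± 1.57 in untreated mice, and 22.1% ± 0.95 and 19.8% ± 1.21 of those of effector-memory-type cells (SD, n = 5 each; effector-memory-type cells numbered from 4 to 21 per mouse).

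The count of 43 and its ribosomal part depended on single mice. Without untreated mouse 5 it was 1, with 0 ribosomal protein genes, and without untreated mouse 2 it was 5, with 2. Without untreated mouse 1 it was 31, with 24. Without gonadotropin mouse 1, 2, 3 and 4, in that order, it was 65, 27, 11 and 14, with 45, 22, 8 and 12 ribosomal protein genes. Without the 11 members with marks of other T cells it was 36, 29 of them ribosomal protein genes.

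The remaining genes were Actg1, Smim11, Foxp1, Ctla4, Ikzf2, Spidr, Dnah8 and Tmlhe. Actg1, a cytoplasmic actin, had -0.31 ± 0.13 in naive-type and 0.67 ± 0.19 in effector-memory-type cells, each fitted alone, and a difference of -1.0 ± 0.25 in the joint fit (edgeR adjusted p = 0.04). Smim11 differed by -2.25 ± 0.55 (edgeR adjusted p = 0.0385) and Foxp1 by 0.77 ± 0.20 (edgeR adjusted p = 0.0451). Most of these calls were lost in other settings: of 9 alternatives, that of Actg1 held in 3, those of Smim11, Foxp1 and Dnah8 in 2 each, and those of Spidr and Tmlhe in 1 each. For Foxp1 the adjusted p ran from 0.0282 to 0.293 over them. Ctla4, an inhibitory receptor of regulatory and activated T cells, had 62 UMIs in gonadotropin and 42 in untreated naive-type cells of all 10 mice, and 30 and 68 in their effector-memory-type cells. In the 7 mice of the joint fit its difference was 3.16 ± 0.69 (log2 ± SE; edgeR adjusted p = 0.016). Ikzf2 differed by 3.05 ± 0.59 (edgeR adjusted p = 0.00828). Both are among the markers by which the 11 members with marks of other T cells were set apart. Those cells held 130 of the 162 Ikzf2 UMIs of the members and 23 of the 104 Ctla4 UMIs. Without those cells the difference of Ikzf2 was 0.78 ± 0.67 (edgeR adjusted p = 0.816). Ctla4 was no longer tested without them, so its difference there is not given.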

How the data were processed

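The authors deposited 1 cell-by-gene matrix of raw UMI counts with cell metadata, built with bcl2fastq, Cell Ranger and Seurat on mm10, per the submitters' processing notes; their versions are not given in the sources used here. The deposited metadata gave each barcode's hashtag call and mouse, used as another kind of label and not as a measurement. The hashtag libraries entered only through these calls, so doublets within 1 mouse are not marked. No column of other samples was left unused (0). The members, gene lists and tests were chosen with earlier results of these data known, and so were the genes of the 31 lists.

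From the counts, each mouse's members were summed (at least 10 cells per mouse) and tested with edgeR 4.0.16 (TMM, filterByExpr, quasi-likelihood F test, Benjamini-Hochberg adjusted p under 0.05) in R 4.3.3. DESeq2 1.42.0 and limma 3.58.1 voom were alternatives. For shares and cell quality, an exact two-sided permutation test was run on the per-mouse values (scipy 1.17.1). Where depth mattered, cells were thinned to 2000 UMIs (seed 1). The scripts were tested on simulated data.

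The rule for named genes took, among called genes whose groups did not overlap and whose mean log2 CPM was 5 or more, the 10 largest rises and falls, then the 5 smallest p in each direction where fewer than 5 passed, and the 5 smallest p of each interaction. For ratios between types it took the 10 largest in each direction, with at least 50 CPM in the higher type and the same direction in every mouse. Gm and Rik models, mitochondrial and ribosomal protein genes, receptor segments and Xist stand outside it, and list members may be named. A few genes that the rule or the lists hold are not reported here, though counts and medians of lists include them. Mouse numbers are names only. UMIs read the 3' end, so levels are not compared between genes. A limit from a count of 0 is 3 counts and covers counting error only.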

Additional observations from a re-analysis of the deposited data

Results flagged for a closer look

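Single mice stood far from the other 4 of their group in 5 of 108 groups of values examined for this, and chance alone flags about 1 in 20. Untreated mouse 5 had a median of 2702 genes per member, against 2410 to 2493.5 in the other untreated mice. For Vti1a, untreated mouse 4 had 201 CPM, against 170 to 176 in the others, still below every gonadotropin mouse. For Nfkbiz, gonadotropin mouse 5 had 35.6 CPM, against 82.0 to 96.5. For Socs3, a feedback inhibitor of cytokine signalling, untreated mouse 4 had 126 CPM, against 33.5 to 57.5. For Tap1, a peptide transporter of antigen presentation, untreated mouse 4 had 101 CPM, against 43.9 to 53.3. Gonadotropin mouse 5 and untreated mouse 4 gave 16 and 19 members, the fewest of their groups.

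Differences in the response between naive-type CD4 T cells and the other types passed the interaction test for several genes. Against effector-memory-type CD4 T cells they were -0.70 for Eef1a1, 3.05 for Ikzf2, 3.16 for Ctla4, -2.25 for Smim11 and -1.0 for Actg1, and against naive-type CD8 T cells -1.65 for Maml3 (log2). The call of Eef1a1 held in 8 of 9 alternatives, that of Ikzf2 in 6 of 9, of Ctla4 in 3 of 8, of Smim11 in 2 of 9, of Actg1 in 3 of 9 and of Maml3 in 7 of 13. Most Ikzf2 UMIs lay in the members with marks of other T cells, 130 of 162, against 23 of 104 for Ctla4. Without those members the difference of Ikzf2 was 0.78 (edgeR adjusted p = 0.816), and Ctla4 was not tested. Foxp1, Dnah8, Spidr and Tmlhe also passed against effector-memory-type cells, and their calls held in 2, 2, 1 and 1 of 9 alternatives.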

How the results depend on the processing

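The count of 3 genes past the threshold, of 3528 tested, was 38 with DESeq2 (15 higher, 23 lower, of 245 genes given an adjusted p). Of those 38, 1 was among the 3. The count was 26 of 3528 with plain library sizes and 36 of 14373 with no filter beyond 1 count. In the mice with at least 20 members (3 gonadotropin, 4 untreated) it was 16 of 3798, and after thinning the members 9 of 805. It was 2 of 2585 with the gate applied after thinning (2 gonadotropin and 4 untreated mice), where Gm42418 had -0.0252 and Junb missed the threshold (-1.11, edgeR adjusted p = 0.0945). Leaving out 1 mouse gave 0 to 32 genes: 0 without untreated mouse 1 (343 genes at an unadjusted p of 0.05), 32 without gonadotropin mouse 2 and 11 without untreated mouse 4. Junb passed in 16 of 18 alternatives with an adjusted p and kept its sign in each; Fos passed in 5 of 17. The interaction counts were 20 (effector-memory-type) and 0 (naive-type CD8, 213 at an unadjusted p of 0.05) with limma voom, and 1 to 65 and 0 to 3 without 1 mouse; with at least 20 cells of both types the first could not be fitted (1 gonadotropin mouse, 0 untreated). Both shares kept their sign and missed the threshold in all alternatives, although the difference in the share of kept cells ran from -2.22 to -0.43 without 1 mouse. Without 1 mouse, the difference in median UMIs per cell was -79.4 to 390 (-40.5 without gonadotropin mouse 2, -58.9 and -79.4 without untreated mice 3 and 4), and that in genes per cell 60.05 to 133, passing without untreated mouse 5 (exact permutation, adjusted p = 0.0476). Alternatives on cells with other marks, leave-one-out of the interactions and of cell quality were chosen after seeing the data. No paired analysis was possible because mouse numbers are not shared labels. Members per mouse (16 to 58) limit the precision for genes with few UMIs. Where a call was lost, the cause was not tested.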
